A study of Gallus gallus with 6 samples.

Results

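The upper face of the chick forms from a frontonasal prominence (FNP), which gives rise to the midface and upper beak tip, and paired maxillary prominences (MXP), which give rise to the sides of the upper jaw. The comparison described here is the FNP against the MXP within each genotype, as the log2 value of a gene in the FNP minus that in the MXP, once in control and once in *talpid2* embryos. It used 4 of the 6 RNA-seq libraries of the series for these differences (control FNP, control MXP, *talpid2* FNP and *talpid2* MXP), and all 10337 genes with deposited values. The *talpid2* chick is a ciliopathic mutant with a deletion in *C2CD3*, bred from heterozygous carriers, and the genotype of the controls beyond the word control is not given in the sources used here. Tissue of 8 embryos per genotype at stage HH25 was pooled, so each prominence of a genotype had 1 library, and a difference within a genotype has no replicate check. The other libraries, from the mandibular prominence (MNP) of each genotype, entered only the estimate of spread and the placement of single genes.

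The mesenchyme of the FNP and of the MXP comes largely from cranial neural crest, which takes on different identities in each prominence. Homeobox genes of the ALX family are known for the frontonasal region, and DLX genes for the first pharyngeal arch, from which the MXP and the MNP derive. *SHH* (sonic hedgehog) is a secreted ligand known from the ectoderm at the tip of the FNP, where it patterns outgrowth of the upper beak, and its binding to the receptor PTC (*PTCH1*) releases signalling through SMO to the GLI factors at the primary cilium.

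Deposited values are log2 values relative to the median of the gene over the 6 libraries, so they compare libraries and not genes. For 4745 genes (45.9%) the reads behind the values could be recovered. Scaled values under 1 were raised to 1 in the deposited data, and a library at that floor is given here as 0 reads. It can still hold a read, since 1 read had a scaled value of 0.909 in the control FNP. Depth relative to the median library was 1.15 and 0.99 in the control FNP and MXP and 0.949 and 0.986 in the *talpid2* FNP and MXP. Where reads were recovered, 95% Clopper-Pearson intervals are given for the difference, and they cover counting error only, since amplified reads are not independent molecules. In pooled tissue, fewer cells of a type and less RNA per cell cannot be told apart. As a check of the labels, *HAND2*, a factor of the mandibular arch, had a log2 value of 6.70 in the control and 6.91 in the *talpid2* MNP, and values from -0.53 to 0.14 in the FNP and MXP libraries.

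The 3 marker genes of the comparison separated the prominences in both genotypes. *ALX1* (ENSGALG00000011144; chromosome 1, 43729301 to 43749274, plus strand, in the coordinates of the deposited file, whose assembly is not named) encodes a paired-type homeodomain factor needed for the midface. Its log2 value was 1.94 in the control and 2.16 in the *talpid2* FNP, against -0.08 and 0.08 in the MXP, and the MNP had -1.73 and -1.56. Both FNP libraries were above both MXP libraries, by 2.02 in control and 2.08 in *talpid2* (limma estimate 2.05, SE 0.06, adjusted p = 0.00326). *DLX1* (ENSGALG00000018439; chromosome 7, 19237619 to 19245061, minus strand) encodes a distal-less homeodomain factor of the arches. It had 20 reads in the control FNP, 1584 in the control MXP, 15 in the *talpid2* FNP and 1754 in the *talpid2* MXP. The difference was -6.52 in control (interval -7.23 to -5.89) and -6.81 in *talpid2* (-7.66 to -6.09), low in the FNP, with an adjusted p of 0.00164 in limma. *SHH* (ENSGALG00000006379; chromosome 2, 7684550 to 8084907, minus strand) had 239.7 reads in the control FNP, 39.8 in the control MXP, 425 in the *talpid2* FNP and 119 in the *talpid2* MXP. Its difference was 2.38 in control (1.89 to 2.89) and 1.89 in *talpid2* (1.59 to 2.20), and the limma adjusted p over both was 0.0495. The call was lost without the genotype term (adjusted p = 0.129) and with the robust fit (0.054). The ratio of FNP to MXP reads of *SHH* was not shown to differ between genotypes (exact conditional test, adjusted p = 0.511).

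Across all genes, the linear model with limma used the 6 libraries with prominence and genotype as terms, and its spread comes from how far the genotypes disagree. It placed 466 genes higher in the FNP (4.51% of the 10337 tested) and 350 higher in the MXP (3.39%) at an adjusted p of at most 0.05. Taking *GAPDH* as the reference, the split was 435 higher in the FNP against 4623 higher in the MXP, because that reference lowers every difference by the difference of *GAPDH* itself, 0.36 in control and 0.24 in *talpid2* (0.30 on average). None of the 103 named genes called by limma changed direction under that reference, and 3 (*DLX5*, *BMP7* and *SEMA3A*) were no longer called. Without the genotype term, 22 of the 103 were not called, among them *SHH*, *TFAP2A*, *DLX5*, *GAS1*, *CDON*, *DISP1*, *BMP5*, *BAMBI*, *ID1*, *ID2*, *NOTUM*, *SEMA3A*, *COL3A1*, *FOXE3*, *CCNB1*, *MCM3* and *MCM5* (limma adjusted p from 0.0505 for *ID2* to 0.437 for *COL3A1*). A difference of at least 1 on the log2 scale, the same way in both genotypes, was found for 401 genes, 224 higher in the FNP (2.17%) and 177 higher in the MXP (1.71%). With *GAPDH* as the reference these were 147 and 276. Of the 401 genes, 337 were also called by limma and 151 were inside the expression limits of the authors in every library. The exact test of reads between single libraries passed 23.3% of 4731 genes in control and 21.1% of 4737 in *talpid2*, and 248 of the 291 genes with reads among the 401 passed it in both. That test compares the libraries and not the prominences. The 401 genes were picked on the same values that it and limma used, so these overlaps are not a separate check. Across genes, which are not independent replicates, the differences in control and in *talpid2* had a Pearson's r of 0.766 and a Spearman's rho of 0.545.

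**Figure D1:**
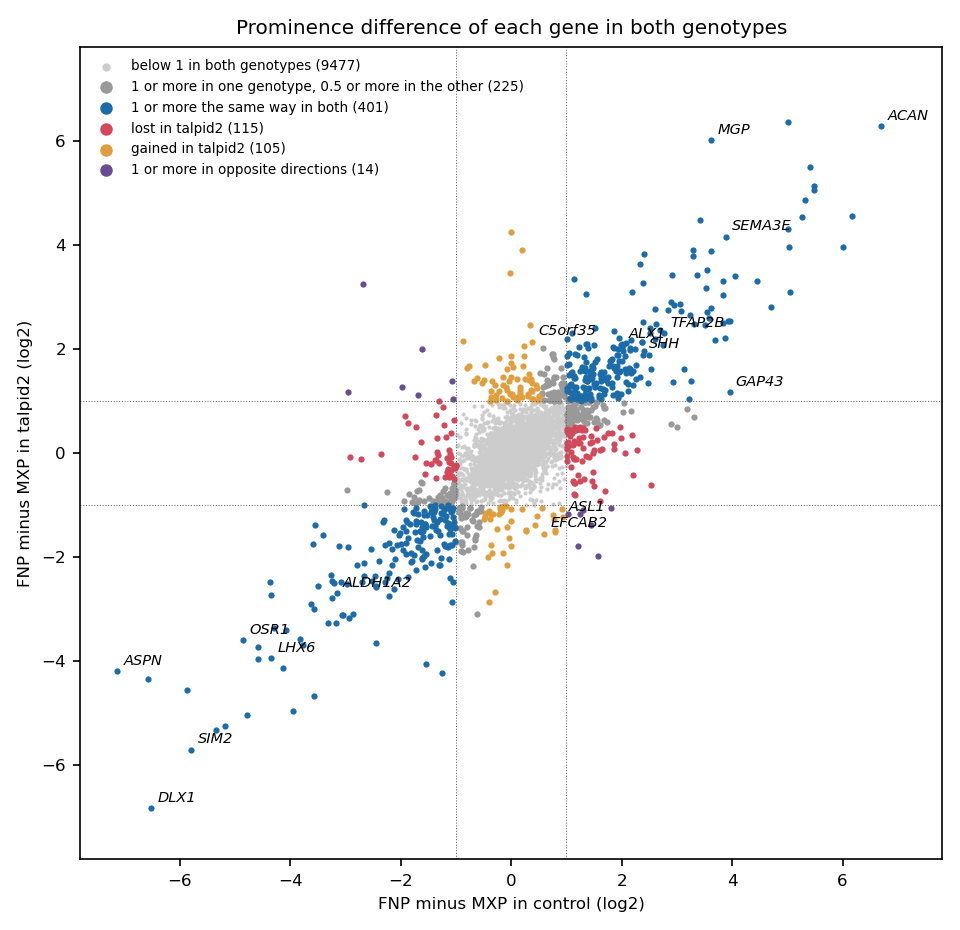
FNP minus MXP of each of the 10337 genes on the log2 scale, in control (horizontal axis) and in *talpid2* (vertical axis), coloured by whether a difference of at least 1 was found in both genotypes or in 1 of them, with dotted lines at a difference of 1 in either direction. The 401 genes that differed the same way in both lie in the upper right and lower left corners, with *ACAN* (6.70 and 6.27) far out in the former and *DLX1* (-6.52 and -6.81) in the latter.

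The MNP libraries were set beside both prominences. Among the 177 genes higher in the MXP, the MNP value was nearer to the MXP than to the FNP in both genotypes for 110 genes (62.1%) and nearer to the FNP in both for 38. Among the 224 genes higher in the FNP, it was nearer to the MXP for 134 (59.8%) and nearer to the FNP for 66. The shares over all genes were not computed, so these are not shown to be particular to the selected genes. *DLX1* was higher in the MXP with the MNP nearer to the MXP, with 1244 reads in the control and 1129 in the *talpid2* MNP, as were *SIM2* and *NTN1*. *FOXL2* was high in the MXP only, with log2 values of 3.85 and 3.28 there, -0.23 and -0.11 in the FNP and -0.04 and 0.04 in the MNP.

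Of the 12 genes with the largest maxillary excess, 5 encode transcription factors (*DLX1*, *SIM2*, *OSR1*, *LHX6* and *SHOX*). *SIM2*, a bHLH-PAS factor, had 6 and 5.76 reads in the control and *talpid2* FNP against 286.9 and 310.1 in the MXP, a difference of -5.79 (-7.25 to -4.65) in control and -5.70 (-7.09 to -4.50) in *talpid2*. *LHX6*, a LIM homeodomain factor of oral first arch mesenchyme, had 62.7 and 79.3 reads in the control and *talpid2* FNP and 1101 and 1259 in the MXP. Its differences were -4.34 and -3.93 (limma adjusted p = 0.00343). The related factor *LHX8* had log2 values of -0.69 and -0.10 in the FNP and 2.02 and 2.39 in the MXP (limma -2.59, SE 0.15, adjusted p = 0.00829). *OSR1*, an odd-skipped zinc finger factor, had 35.3 and 43.4 reads in the FNP and 885.5 and 544.4 in the MXP. It was lower in the FNP in both genotypes, by 4.86 in control and 3.59 in *talpid2*, and the ratio was smaller in *talpid2* (exact conditional test, adjusted p = 0.0126). *FOXL2*, a forkhead factor known from the ovary and eyelid, had 124.7 and 112.2 reads in the FNP and 1822 and 1223 in the MXP. Its difference also passed the test of unequal ratios (-4.08 in control, -3.39 in *talpid2*, adjusted p = 0.0285). *SHOX*, a homeobox gene of limb and arch skeleton, had 4 and 1 reads in the FNP and 40.8 and 26.5 in the MXP. With a pseudocount of 10 reads its mean difference went from -4.12 to -1.83. *SHOX* was inside the expression limits of the authors in only 2 libraries. All FNP libraries were below all MXP libraries for each of these 6 genes, of which *SIM2*, *LHX6*, *OSR1* and *SHOX* were chosen for that difference.

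Of the listed first arch transcription factors, 23 of 34 had values. Members of this and the other lists were chosen with earlier results of these data known, so their shares are not a separate check. Limma placed 9 of the 23 higher in the MXP and 1, *DLX5*, higher in the FNP, against 3.39% and 4.51% of all genes, and 13 were not called. The call of *DLX5* was lost with the 4 libraries alone (adjusted p = 0.116). Their median difference was -0.54 in control and -0.46 in *talpid2*, and over all genes it was -0.0072 and -0.0028. With *GAPDH* as the reference 0 of the listed genes were called higher in the FNP and 16 in the MXP, with medians of -0.89 and -0.70. *TBX22*, a T-box gene of the palate, had log2 values of -0.16 and 0.16 in the FNP and 1.56 and 1.47 in the MXP (limma -1.51, SE 0.13, adjusted p = 0.0156). *MEIS1* and *MEIS2*, TALE homeobox cofactors, were lower in the FNP by 1.28 and 1.61 in limma (SE 0.13 and 0.20, adjusted p = 0.0216 and 0.0298). *IRX5* had 63.1 and 54.5 reads in the FNP and 213.1 and 152.6 in the MXP (limma -1.70, SE 0.15, adjusted p = 0.0171). *PITX1*, a homeobox gene of the mandibular arch and hindlimb, was not called, with differences of 0.38 in control and 1.03 in *talpid2*.

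Of the listed frontonasal transcription factors, 9 of 14 had values, and limma placed 5 higher in the FNP and 1, *PRRX1*, higher in the MXP, where the shares of all genes were 4.51% and 3.39%. Their median difference was 0.75 in control and 1.16 in *talpid2*. With *GAPDH* as the reference 5 were called higher in the FNP and 3 in the MXP, with medians of 0.39 and 0.92. *TFAP2B*, an AP-2 factor of neural crest, had 1847 and 892.5 reads in the control and *talpid2* FNP and 235.5 and 187.4 in the MXP. The differences were 2.76 (2.57 to 2.96) and 2.31 (2.08 to 2.55), and unequal ratios were not shown (exact conditional test, adjusted p = 0.0907). *TFAP2A* was 0.75 and 1.16 higher in the FNP (limma 0.95, SE 0.12, adjusted p = 0.0308). *TFAP2E* is not in the list and was chosen for its large difference. It had 624.4 and 313.5 reads in the FNP against 16.8 and 16.4 in the MXP, a difference of 5.01 and 4.31. *ALX4*, like *ALX1* a paired-type factor, was 0.96 and 1.34 higher (limma adjusted p = 0.0369). *MSX2*, a homeobox target of BMP signals, had log2 values of 0.07 and 0.32 in the FNP and -1.35 and -0.93 in the MXP (limma 1.33, SE 0.07, adjusted p = 0.0068). *PRRX1*, a paired-related factor of mesenchyme, went the other way, with values of -1.65 and -1.19 in the FNP and 0.36 and 0.34 in the MXP. With only the 4 FNP and MXP libraries in the model, *ALX4* and *TFAP2A* missed the threshold (adjusted p = 0.0563 and 0.0771), and so did *MEIS2* (0.0543).

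**Figure D2:**
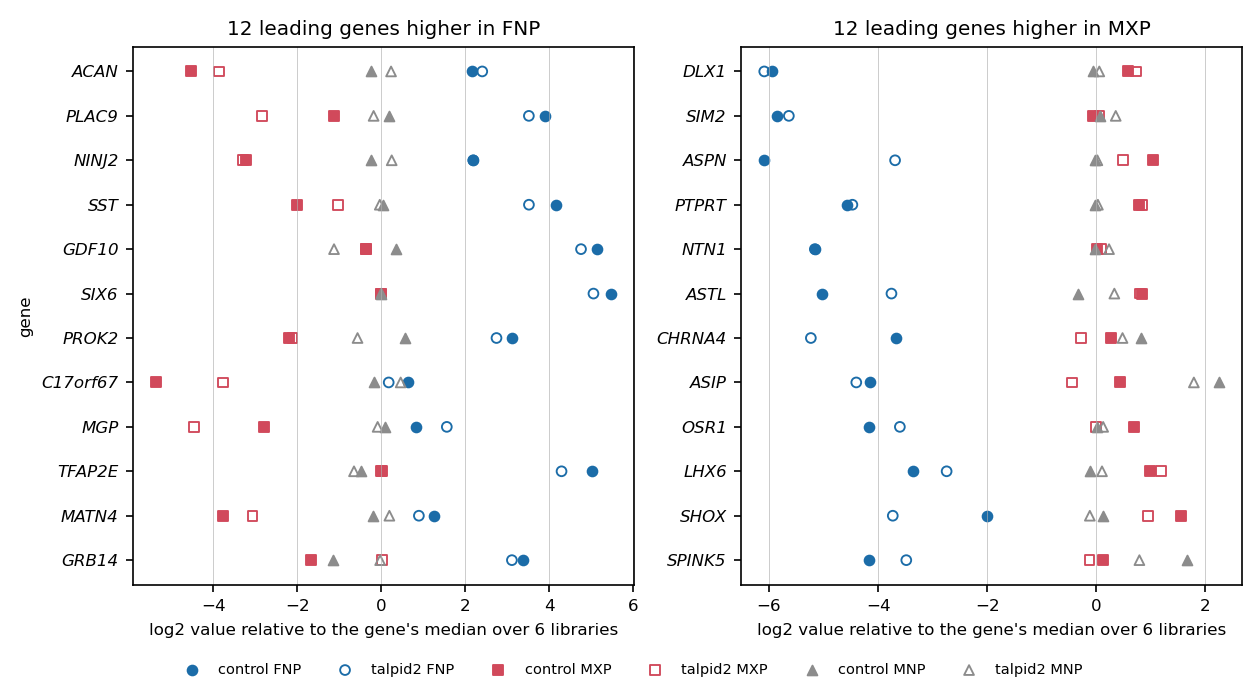
Deposited log2 values, relative to each gene's median, of the 12 genes with the largest mean difference in each direction among named genes that differed the same way in both genotypes, with 1 point per library (filled for control, open for *talpid2*). Circles of the FNP and squares of the MXP do not overlap for any of the 24 genes, which were chosen for this difference. Triangles of the MNP lie beside the squares for *DLX1*, *SIM2* and *NTN1* but beside the circles for *C17orf67*.

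Of the 12 genes with the largest frontonasal excess, 3 are of cartilage and matrix (*ACAN*, *MATN4* and *MGP*). *ACAN* (aggrecan, the main proteoglycan of cartilage) had log2 values of 2.17 and 2.41 in the control and *talpid2* FNP, against -4.53 and -3.87 in the MXP, while the MNP had -0.23 and 0.23, and its difference was 6.49 in limma (SE 0.12, adjusted p = 0.00192). *MATN4*, a matrilin of cartilage matrix, had values of 1.25 and 0.90 in the FNP and -3.77 and -3.07 in the MXP (limma 4.50, SE 0.28, adjusted p = 0.0103). *MGP*, matrix Gla protein, which restrains mineralisation, had 42.7 and 58.9 reads in the FNP and 3 and 0 in the MXP. For *MGP* the difference was 3.62 in control (1.99 to 5.96). In *talpid2* the FNP was 20.4-fold higher if 3 reads are taken for a library with none. The lower limit of that interval was 4.01 on the log2 scale. The limma call of *MGP* was lost with the 4 libraries alone (adjusted p = 0.0757).

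Of the listed cartilage and matrix genes, 21 of 25 had values, of which 11 were higher in the FNP, 1 (*COL3A1*) was higher in the MXP and 9 were not called, against 4.51% and 3.39% of all genes. The median difference of the list was 0.95 in control and 0.76 in *talpid2*. With *GAPDH* as the reference 12 were called higher in the FNP and 4 in the MXP, with medians of 0.59 and 0.53. *COL9A1* and *COL9A3* encode chains of a cartilage collagen. *COL9A1* had log2 values of 2.08 and 2.12 in the FNP and -1.76 and -0.38 in the MXP, so its difference was 3.84 in control and 2.50 in *talpid2* (limma adjusted p = 0.028, and 0.0621 with the 4 libraries alone). *COL9A3* had values of 0.57 and 0.62 in the FNP and -2.37 and -2.23 in the MXP (limma 2.90, SE 0.08, adjusted p = 0.00326). *HAPLN1*, the link protein of aggrecan, had 975.4 and 996.3 reads in the FNP and 187.2 and 228.7 in the MXP, a difference of 2.17 (1.94 to 2.40) and 2.18 (1.97 to 2.39). *SOX9*, the master factor of chondrogenesis, was higher in the FNP by 1.76 in control and 1.46 in *talpid2* (limma adjusted p = 0.0106). *TNC*, the matrix glycoprotein tenascin-C, was 1.84 and 2.03 higher (limma adjusted p = 0.00463). *COL3A1*, a fibrillar collagen of soft connective tissue, was 0.39 and 0.53 lower in the FNP (limma adjusted p = 0.0397, and 0.109 with the 4 libraries alone). *RUNX2*, a factor of bone formation, had from 3.16 to 8.30 reads in the 4 libraries and was not called.

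Other genes among the 12 with the largest frontonasal excess had at most 13 reads in either MXP library, apart from *TFAP2E*, described above. *PLAC9*, *NINJ2*, *SST*, *GDF10*, *SIX6*, *PROK2*, *TFAP2E* and *GRB14* were inside the expression limits of the authors in only 2 libraries. With a pseudocount of 10 reads the mean difference fell from 5.45 to 2.34 for *NINJ2* and from 5.27 to 2.23 for *SIX6*. It fell from 5.09 to 2.06 for *PROK2* and from 4.66 to 4.02 for *TFAP2E*. *GDF10*, a ligand of the TGF-beta superfamily, had 260.3 and 166.8 reads in the FNP and 5 and 4.98 in the MXP, a difference of 5.49 (4.25 to 7.12) in control and 5.12 (3.87 to 6.76) in *talpid2*. *PLAC9* had 124.6 and 79.4 reads in the FNP and 3.32 and 1 in the MXP (5.02, 3.59 to 7.47, in control and 6.37, 3.84 to 11.68, in *talpid2*), and *NINJ2*, an adhesion protein, had 49.3 and 40.9 against 1 and 0. *GRB14*, an adaptor of the insulin receptor, had 153.2 and 106.2 reads against 4 and 13, and *C17orf67* had 74.3 and 44.9 against 1 and 3, with 44.4 and 58.2 in the MNP. The limma calls of these last 2 genes were lost with the 4 libraries alone (adjusted p = 0.0733 and 0.0588). *SIX6*, a homeobox gene of the eye field, hypothalamus and pituitary, had 48.9 and 30.3 reads in the FNP and 0 in each of the other libraries, MNP included. With 3 reads taken for a library with none, the FNP was 14.1-fold higher than the MXP in control and 10.5-fold higher in *talpid2* for *SIX6*. The lower limits of its intervals were 3.465 and 2.989 on the log2 scale.

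Several of these genes are known from neural and neuroendocrine tissue. *SST* (somatostatin) had 83.3 and 44.2 reads in the FNP and 1 and 1.96 in the MXP, and *PROK2*, a secreted prokineticin that guides olfactory bulb neurons in the mouse, had 43.9 and 28 against 0 and 1. *GNRH1*, the hormone of neurons that arise in the olfactory placode, had 28.8 and 6.36 reads in the FNP and 0 in both MXP libraries. With 3 reads taken for a library with none it was 8.29-fold and 2.20-fold higher in the FNP. Its limma call (adjusted p = 0.0449) was lost with the 4 libraries alone (0.0787). *GNRH1* was 1 of 2 genes called, both higher in the FNP (4.51% of all genes), among 9 of the nasal and olfactory placode list. The other was *EYA2* (limma 2.10, adjusted p = 0.00642). With *GAPDH* as the reference, 2 genes of that list were higher in the FNP and 1 in the MXP. *STMN2*, a tubulin regulator of growing axons, had 260.8 and 254.9 reads in the FNP and 43.6 and 60 in the MXP (limma 2.26, SE 0.16, adjusted p = 0.0123). Of 10 listed genes of neurons and ganglia with values, 1 was higher in the FNP (4.51% of all genes), 1 (*ELAVL4*) was higher in the MXP (3.39%) and 8 were not called. The limma call of *ELAVL4* was lost with the 4 libraries alone (adjusted p = 0.0902). Summed over the 6 of them with reads, the scaled level was 499.7 and 418.3 in the control and *talpid2* FNP, against 259.3 and 270.4 in the MXP, while the MNP had 895.9 and 827.5. *STMN2*, with the reads given above, is part of that sum. The median difference of the list was -0.13 in control and 0.03 in *talpid2*. At an unadjusted limma p under 0.05, 2 genes were higher in the FNP and 4 in the MXP. With *GAPDH* as the reference 1 and 4 were called. In the forebrain and neural tube list, 5 of 14 genes had values. Limma placed 1 (*SIX6*, described above) higher in the FNP (4.51% of all genes) and 1 (*EMX1*) higher in the MXP (3.39%), and 3 were not called. With *GAPDH* as the reference 1 and 2 were called. *EMX1*, a homeobox gene of the dorsal forebrain, was lower in the FNP, with 0 and 1 reads there and 22.8 and 13.7 in the MXP. The part of neural tissue in the frontonasal excess was not tested.

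The remaining genes among the 12 that led in the MXP are of matrix, receptors and secreted proteins. *ASPN* (asporin, a small leucine-rich matrix protein) had 0 and 4.80 reads in the FNP and 133.3 and 90.7 in the MXP. With 3 reads taken for a library with none, the MXP was 51.5-fold higher in control. The upper limit of that interval was -5.364 on the log2 scale. In *talpid2* the difference of *ASPN* was -4.19 (-5.79 to -2.85). Its limma call was lost with the 4 libraries alone (adjusted p = 0.0816). *PTPRT*, a receptor-type tyrosine phosphatase, had 13.3 and 11.8 reads in the FNP and 469.2 and 485.6 in the MXP, with differences of -5.35 and -5.31. *NTN1* (netrin 1, a guidance cue needed for closure of the optic fissure and palate) had 0 reads in both FNP libraries and 34.3 and 36 in the MXP. With 3 reads taken for a library with none it was 13.2-fold and 11.6-fold higher in the MXP. The upper limits of its intervals were -3.337 and -3.157 on the log2 scale. *ASIP* (agouti, an antagonist of melanocortin receptors) had 33 and 23 reads in the FNP, against 686.9 and 372 in the MXP, while the MNP had 2941 and 1787. *CHRNA4*, *ASTL* and *SPINK5* had at most 9 reads in either FNP library and between 42.6 and 120.6 in the MXP libraries. Both FNP libraries were below both MXP libraries for all of them, as follows from how they were chosen. With a pseudocount of 10 reads the mean difference went from -5.21 to -2.19 for *NTN1* and from -5.66 to -3.31 for *ASPN*. It went from -3.83 to -2.09 for *SPINK5*, from -5.33 to -4.49 for *PTPRT* and from -4.28 to -3.84 for *ASIP*. *SPINK5* was inside the expression limits of the authors in only 3 libraries.

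Of the listed Hedgehog genes, 13 of 14 had values, and 2 were higher in the FNP (4.51% of all genes), 4 higher in the MXP (3.39%) and 7 not called. The median difference of the list was 0.02 in control and 0.08 in *talpid2*. With *GAPDH* as the reference 2 and 6 were called, with medians of -0.34 and -0.15. The ligand *SHH* and its receptor and target *PTCH1* were those higher in the FNP. *PTCH1* (chromosome Z) had log2 values of 0.73 and 0.33 in the control and *talpid2* FNP and -0.87 and -0.75 in the MXP. Its difference was 1.59 in control and 1.08 in *talpid2* (limma 1.34, SE 0.17, adjusted p = 0.0333, and 0.0623 with the 4 libraries alone). *HHIP*, a decoy receptor and target, had 137.9 and 133.6 reads in the FNP and 41 and 70.3 in the MXP. It was not called by limma (adjusted p = 0.136). The differences of *HHIP* were 1.54 (1.03 to 2.08) in control and 0.98 (0.56 to 1.43) in *talpid2*. For *SHH*, *PTCH1* and *HHIP* the value in *talpid2* was the smaller, but unequal ratios were not shown for *SHH* and *HHIP*, which had reads (exact conditional test, adjusted p = 0.511 and 0.525). The co-receptors *GAS1* and *CDON* were lower in the FNP by 0.47 and 0.43 in limma (adjusted p = 0.0486 and 0.0404), and so were *DISP1*, which releases the ligand, and *OSR2*, a target in palate mesenchyme. *GAS1*, *CDON* and *DISP1* were not called with the 4 libraries alone (adjusted p from 0.0907 to 0.113). *OSR2* had 179.8 and 112.2 reads in the FNP and 477.1 and 472.9 in the MXP. The transducers *SMO* and *GLI2* had differences between -0.06 and 0.02, and *GLI3* -0.32 (-0.50 to -0.15) in control and 0.08 (-0.11 to 0.28) in *talpid2*.

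Among BMP signalling genes, 20 of 25 had values and 8 were higher in the FNP (4.51% of all genes), 0 higher in the MXP (3.39%, and 1 at an unadjusted p under 0.05 in limma) and 12 not called, with a median difference of 0.20 in control and 0.15 in *talpid2*. With *GAPDH* as the reference 7 were higher in the FNP and 4 lower, with medians of -0.16 and -0.08. The ligand *BMP5* had log2 values of 1.01 and 0.68 in the FNP and -0.34 and -1.41 in the MXP (limma 1.72, SE 0.23, adjusted p = 0.0346). The receptor *BMPR1B* was 1.15 and 1.05 higher in the FNP (limma adjusted p = 0.0113). The extracellular antagonists *FST* and *CHRDL1* were higher in the FNP as well, *FST* with 325 and 232.2 reads against 131.1 and 82.1, and *CHRDL1* with 133.2 and 98 against 40.8 and 40.5. The target genes *ID1*, *ID2* and *BAMBI* were among the 8, with limma estimates of 1.41 for *ID1* and 1.06 for *BAMBI*. *BMP5*, *BMP7*, *FST* and *ID1* missed the threshold with the 4 libraries alone (adjusted p from 0.0556 to 0.095). The ligands *BMP2* and *BMP4* had differences between 0.15 and 0.32 and were not called.

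Among WNT genes, 32 of 44 had values, with 7 higher in the FNP (4.51% of all genes), 3 higher in the MXP (3.39%) and 22 not called, and a median difference of 0.04 in control and -0.01 in *talpid2*. With *GAPDH* as the reference the split was 7 and 13. The ligands differed among themselves. *WNT11* had log2 values of -1.18 and -1.13 in the FNP and 1.27 and 1.43 in the MXP (limma -2.50, SE 0.09, adjusted p = 0.00405), and *WNT5B* had 139 and 128.3 reads in the FNP against 407.9 and 515.1. *WNT16* was higher in the FNP, with 158.2 and 147.8 reads against 47.8 and 45.7 in the MXP. Of the secreted inhibitors of WNT signalling in the list, *DKK2*, *NOTUM* and *SFRP1* were called higher in the FNP, and *DKK3*, *DKK4*, *SFRP2*, *FRZB*, *SOSTDC1* and *WIF1* were not called. *DKK2* had 983.6 and 633.1 reads in the FNP and 304.1 and 212.6 in the MXP, *NOTUM* 290.1 and 317.7 against 105.5 and 155.1, and *SFRP1* was 1.39 and 1.06 higher on the log2 scale. The limma adjusted p was 0.00723 for *DKK2*, 0.032 for *NOTUM* and 0.0156 for *SFRP1*.

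In the retinoic acid list, 9 of 17 genes had values. Limma placed 1 higher in the FNP (4.51% of all genes) and 2 higher in the MXP (3.39%), and 6 were not called. The median difference was -0.32 in control and -0.48 in *talpid2*. With *GAPDH* as the reference the split was 1 and 6, with medians of -0.68 and -0.71. The called enzymes *ALDH1A2* and *CYP26B1* stood on opposite sides. *ALDH1A2*, which makes retinoic acid, had log2 values of -1.22 and -0.69 in the FNP and 1.94 and 2.0 in the MXP (limma -2.93, SE 0.14, adjusted p = 0.0062). *RDH10*, which makes its precursor retinal, had 606.4 and 388.5 reads in the FNP and 1045 and 1312 in the MXP. The difference of *RDH10* was -1.0 (-1.15 to -0.85) in control and -1.70 (-1.86 to -1.53) in *talpid2*. It was larger in *talpid2* in the exact conditional test (adjusted p = 6.91e-08), and it narrowly missed the limma threshold (adjusted p = 0.0515). *CYP26B1*, which degrades retinoic acid, had 563.3 and 448.2 reads in the FNP and 166.6 and 237 in the MXP. Its difference of 1.55 in control and 0.97 in *talpid2* was smaller in *talpid2* (adjusted p = 0.0388 in the same exact test), and its limma call (adjusted p = 0.0396) was lost with the 4 libraries alone (0.0754). The receptor *RARB* was lower in the FNP by 0.70 in limma (adjusted p = 0.0343, and 0.0727 with the 4 libraries alone).

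The FGF list had values for 19 of 24 genes, with 2 higher in the FNP (4.51% of all genes), 1 higher in the MXP (3.39%) and 16 not called, and a median difference of 0.15 in control and -0.13 in *talpid2*. With *GAPDH* as the reference the split was 2 and 8, with medians of -0.21 and -0.37. The receptor *FGFR2* had log2 values of 0.71 and 0.53 in the FNP and -0.65 and -0.93 in the MXP (limma 1.41, SE 0.07, adjusted p = 0.00641). *FGF10*, a mesenchymal ligand, had at most 11.1 reads in the 4 libraries and was not called. *FGF8*, the ligand of facial ectoderm that supports outgrowth, had 166.3 reads in the control FNP, 119.1 in the control MXP, 76.9 in the *talpid2* FNP and 124.6 in the *talpid2* MXP. The difference of *FGF8* was 0.27 in control (-0.08 to 0.62) and -0.64 in *talpid2* (-1.07 to -0.22), and the ratios were unequal (exact conditional test, adjusted p = 0.0374). *SPRY2*, a feedback inhibitor of FGF signalling, went from -0.30 in control to -0.78 in *talpid2* (adjusted p = 0.0327), and *SPRY4* from 0.26 to -1.50, which missed the threshold (adjusted p = 0.0608). In the endothelin and NOTCH list, *JAG1*, a NOTCH ligand, was 1.14 and 1.26 higher in the FNP (limma adjusted p = 0.0123). It was the only 1 of 9 genes called, where 4.51% of all genes were higher in the FNP. With *GAPDH* as the reference, 1 gene of that list was higher in the FNP and 4 in the MXP.

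Axon guidance genes were divided, with 5 of 29 higher in the FNP (4.51% of all genes), 6 higher in the MXP (3.39%) and 18 not called, of 34 listed, and 4 and 10 with *GAPDH* as the reference. *SEMA3E*, a secreted semaphorin, had 7211 and 5438 reads in the FNP and 422.2 and 316.9 in the MXP, differences of 3.88 (3.74 to 4.03) in control and 4.16 (3.99 to 4.32) in *talpid2*. The semaphorins *SEMA3A*, *SEMA3C* and *SEMA3D* and the netrin receptor *UNC5C* were called higher in the FNP too. *SEMA3A* and *SEMA3D* were not called with the 4 libraries alone (adjusted p = 0.106 and 0.0554), nor *SEMA3A* without the genotype term (0.307) or with *GAPDH* as the reference (0.279). *NTN1*, *SLIT2* and *SLIT3* were higher in the MXP, *SLIT2* with log2 values of -1.63 and -1.77 in the FNP and 0.27 and -0.27 in the MXP (limma -1.70, SE 0.12, adjusted p = 0.0115). The call of *SLIT3* was lost with the 4 libraries alone (adjusted p = 0.0623).

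In lists of other tissues, the counts of genes called stand beside 4.51% higher in the FNP and 3.39% higher in the MXP over all genes, and with so few members a count of 0 or 1 is near these shares. Limma called no gene among 9 erythroid, 14 endothelial and 4 macrophage genes with values, of which 0, 4 and 2 had an unadjusted p under 0.05. With *GAPDH* as the reference 2, 9 and 2 of them were called, all higher in the MXP. The median differences in control and *talpid2* were -0.08 and -0.41 for the erythroid, -0.19 and -0.11 for the endothelial and 0.13 and 0.06 for the macrophage genes. Of 14 epithelial genes, limma called *TFAP2C*, higher in the MXP, and no other, and the median difference was 0.19 in control and 0.36 in *talpid2*. The summed scaled level of the 6 epithelial genes with reads was 1631 and 1744 in the control and *talpid2* FNP and 1350 and 1451 in the MXP. Of 13 muscle genes, *MYF5*, *MYOD1* and *MSC* were called higher in the FNP. The calls of *MYF5* and *MYOD1* were lost with the 4 libraries alone (adjusted p = 0.0583 and 0.104), and that of *MYOD1* with the robust fit too (0.0517). *MYOD1*, a myogenic factor, had 45.1 reads in each FNP library and 19.3 and 12.9 in the MXP, while *MYF5* had at most 3 reads in the 4 libraries, and the summed level of the list was lower in the FNP and MXP (678.4 to 1402) than in the MNP (4786 and 6057). *SOX10*, a marker of glial and pigment precursors, had 122.7 and 68.2 reads in the FNP and 200.9 and 191.6 in the MXP (limma adjusted p = 0.0312, and 0.0733 with the 4 libraries alone). In the cell cycle list, 3 of 16 genes (*CCNB1*, *MCM3* and *MCM5*) were called, lower in the FNP by 0.35 to 0.41 in limma, and the median difference was -0.32 in control and -0.31 in *talpid2*. These 3 were not called with the 4 libraries alone (adjusted p from 0.108 to 0.133). Over the list, 11 genes lower in the FNP had an unadjusted p under 0.05, and 12 were called lower with *GAPDH* as the reference, with medians of -0.68 and -0.55.

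**Figure D3:**
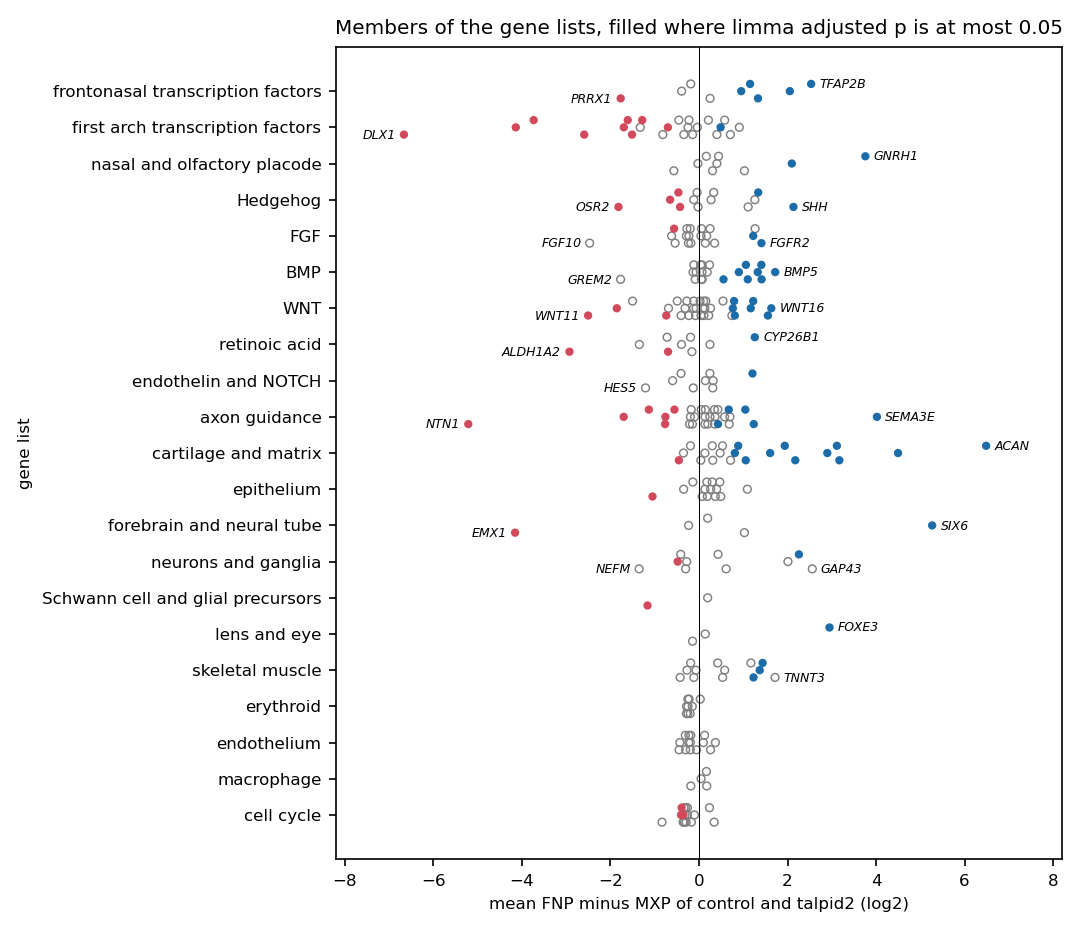
Mean FNP minus MXP of control and *talpid2* (log2) for each member of 21 gene lists, filled where the limma adjusted p was at most 0.05 (blue for higher in the FNP, red for higher in the MXP) and open otherwise. First arch factors extend to the left as far as *DLX1* and cartilage and matrix genes to the right as far as *ACAN*, while erythroid, endothelial and macrophage genes stay within 0.5 of 0.

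Differences that depended on the genotype were fewer and mostly of genes with few reads. A difference of at least 1 in control that was below 0.5, or turned round, in *talpid2* was found for 129 genes (1.25%), and the reverse, a difference gained in *talpid2*, for 119 genes (1.15%), of which 14 are in both sets because they turned round. The split of the lost differences was 79 higher and 50 lower in the control FNP, and 43 and 103 with *GAPDH* as the reference. Only 27 of the lost and 23 of the gained genes were inside those limits in every library. Among genes with recovered reads, the median of the highest read number in the 4 libraries was 21.3 for the lost and 16.3 for the gained genes. It was 121 for the 291 such genes that differed the same way. Among small RNA genes, 24 of the 128 snoRNA genes were lost (18.8%) and 19 gained (14.8%), against 0.928% and 0.848% of the protein-coding genes. With a pseudocount of 10 reads, 29 genes were lost and 32 gained, of the genes with recovered reads, among which 112 and 107 were without it. The exact conditional test of equal FNP to MXP ratios on the reads passed 126 of 4716 genes (2.67%). Of genes with recovered reads, these included 13 of 112 lost, 13 of 107 gained and 7 of 291 that differed the same way. Since the test takes counting as the only source of variation, it tells these 4 libraries apart and not the genotypes. The lost and gained genes were picked on the same values that it used, so passing it is not a separate check. Lost and gained genes that passed were also the first to be named.

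On the frontonasal side, 3 named genes lost their difference and passed that test. *RFLNB* (refilin B, an actin regulator) had 549.9 reads in the control FNP, 174.1 in the control MXP, 288.6 in the *talpid2* FNP and 239.4 in the *talpid2* MXP, so its difference went from 1.45 (1.2 to 1.70) to 0.33 (0.08 to 0.58; exact conditional test, adjusted p = 6.91e-08). *WIF1*, a secreted inhibitor of WNT ligands, had 374.4 and 151.6 reads in the control FNP and MXP and 299.5 and 237.2 in *talpid2*, a change from 1.09 to 0.39 (adjusted p = 0.0127, exact test). The entry gga-let-7f, a microRNA, had 272 and 84.7 reads in control and 60.2 and 80.6 in *talpid2*, which turned 1.47 into -0.37 (adjusted p = 2.31e-07, exact test). The other 5 genes of the 8 named here (gga-mir-1555, *TUBA5*, snoU54, U4 and *MYL10*) had fewer than 13 reads in each of the 4 libraries and did not pass. *MYL4*, a myosin light chain of muscle and heart, kept part of its difference, 1.74 in control and 0.60 in *talpid2*, and passed the test of unequal ratios (adjusted p = 9.70e-14). So did *KRT15*, a keratin of basal epithelium (1.55 and 0.63, adjusted p = 0.00118), and *GAP43*, a growth cone protein (71.7 against 4 reads in control, 26.4 against 12.2 in *talpid2*, adjusted p = 0.0487).

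On the maxillary side, 4 named genes lost their difference and passed. *COL21A1*, a collagen of fibril surfaces, had 84.5 and 185.6 reads in the control FNP and MXP and 82.2 and 84.4 in *talpid2*, a change from -1.35 (-1.73 to -0.96) to 0.02 (-0.44 to 0.48; exact conditional test, adjusted p = 0.000445). *PODNL1*, a small leucine-rich matrix protein, went from -1.46 to -0.21 (adjusted p = 0.00259, exact test), with 163.4 reads in the control and 105.2 in the *talpid2* MXP. *CCSER1* (-1.64 and 0.21) and *ZNF385D* (-1.09 and 0.39) had at most 67.5 reads in any of the 4 libraries, and passed as well (adjusted p = 0.00367 and 0.0112, exact test). Of the 8 genes named here, the snoRNA and microRNA genes *SNORA19*, *SNORD35*, *SNORA54* and gga-mir-2129 had at most 13.6 reads and did not pass.

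Among differences towards the FNP that were gained in *talpid2*, 5 named genes passed the test. *C5orf35* had 481.5 reads in the control FNP, 319.8 in the control MXP, 712.4 in the *talpid2* FNP and 168 in the *talpid2* MXP, so its difference went from 0.38 (0.17 to 0.59) to 2.14 (1.89 to 2.39; exact conditional test, adjusted p = 2.02e-25). *SOCS2*, an inhibitor of growth hormone signalling, had 562.3 and 436 reads in control and 391 and 182.2 in *talpid2* (0.16 and 1.16, adjusted p = 6.27e-08, exact test). *HGF*, the ligand of the MET receptor, had 134.6 and 107.9 reads in control and 184.8 and 71.3 in *talpid2* (0.11 and 1.43, adjusted p = 0.00015, exact test). *MYH1F*, a skeletal myosin heavy chain, went from 0.23 to 1.87 (adjusted p = 2.91e-06) with a lower count in the *talpid2* MXP (48.6 reads) than in the other 3, and *PPM1H*, a phosphatase, from 0.03 to 1.65 (adjusted p = 0.00488). *SNORA22* had at most 6.64 reads and did not pass.

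Differences towards the MXP that were gained in *talpid2*, with unequal ratios, were found for *EFCAB2*, *ASL1* and *EPS8*, named for their gain. *HES5*, a list member given below, had such a difference too. A gained difference can come from a change in either prominence. *EFCAB2*, an EF-hand protein, had 789.1 and 449.3 reads in the control FNP and MXP and 250.2 and 761 in *talpid2*, and its difference turned from 0.60 (0.43 to 0.77) to -1.55 (-1.76 to -1.34; exact conditional test, adjusted p = 4.42e-58). *ASL1*, delta crystallin of the avian lens, had 96.2 and 43.5 reads in control and 492.7 and 1199 in *talpid2*, a change from 0.93 to -1.23 (adjusted p = 8.93e-14, exact test). Of the 21 lens and eye genes listed, 3 had values, and *FOXE3*, a lens factor, had 34.6 and 14.1 reads in the FNP and 3.16 and 2.34 in the MXP. The part of lens tissue in the *ASL1* values was not tested. *EPS8*, an actin capping protein, had 664 and 791.2 reads in the control FNP and MXP and 343.4 and 791 in *talpid2*. Its difference went from -0.46 to -1.15 (adjusted p = 2.13e-06, exact test). *TMOD1* and *MFAP5* had at most 15.4 reads and did not pass. Among listed genes, *GBX2*, a homeobox gene of the midbrain border and arches, had 372.5 and 595.2 reads in control and 192.8 and 682.3 in *talpid2* (-0.89 and -1.77, adjusted p = 1.02e-06, exact test). *HES5*, a NOTCH target, went from -0.42 to -2.0 (adjusted p = 0.000263), and *FZD10*, a WNT receptor, from 0.44 to -0.35 (adjusted p = 0.0258).

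**Figure D4:**
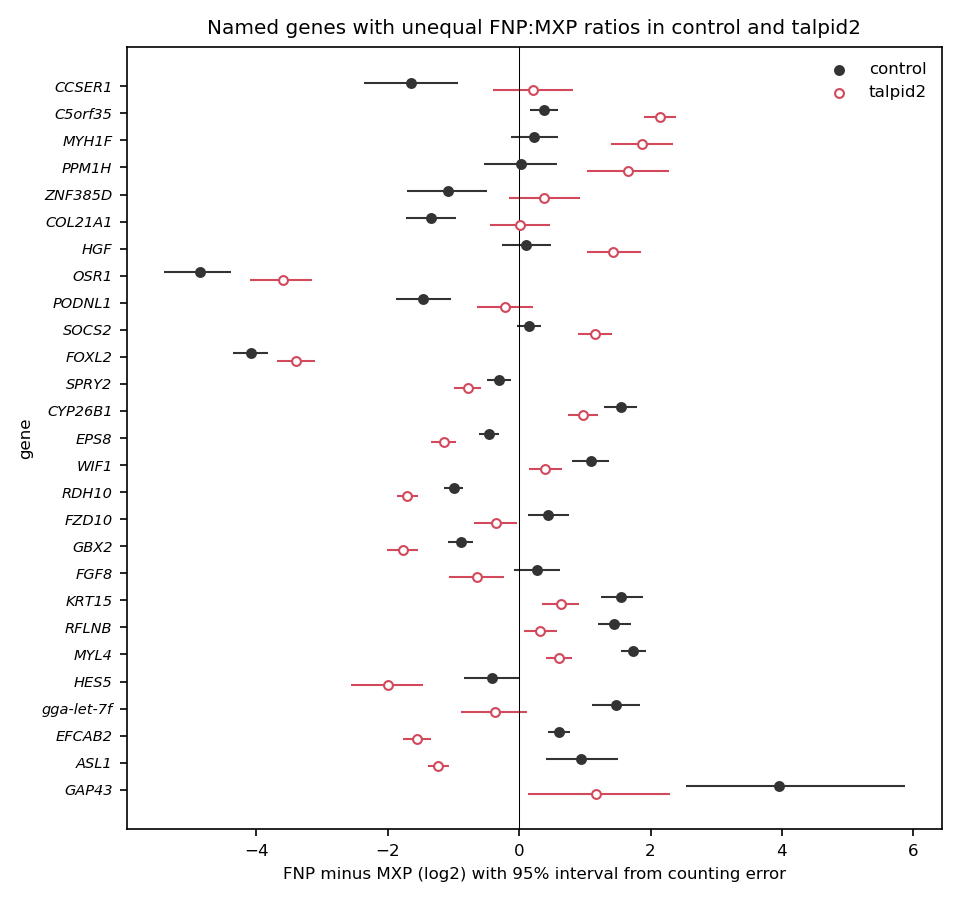
FNP minus MXP (log2) in control (black) and *talpid2* (red, open) for the 27 named genes whose FNP to MXP ratios were unequal in the exact conditional test, with 95% Clopper-Pearson intervals from counting error. *EFCAB2* and *ASL1* lie above 0 in control and below 0 in *talpid2*, *OSR1* and *FOXL2* stay below -3 in both genotypes, and *C5orf35* moves from 0.38 to 2.14.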

How the data were processed

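RNA-seq was done on pooled facial tissue of 8 control and 8 *talpid2* embryos at HH25, with 1 library per prominence and genotype on 1 sequencing lane. The authors made the log2 values in GeneSpring from reads aligned to an Ensembl chick genome, and the deposited log2 value of each gene is relative to its median over the 6 libraries, after scaling per library and raising values under 1 to 1. Aligner and scaling are not given in the sources used here. The authors kept 10337 genes within their expression limits in at least 1 library, and 9128 of these are within them in all 6.

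Reads behind the deposited values were recovered as counts of bases divided by a read length of 50, so they need not be whole reads, for 4745 genes. About 3.58 false solutions are expected among them. Recovered reads summed to between 950108 and 1231915 per library.

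Differences across genes were fitted with limma 3.58.1 (R 4.3.3) with prominence and genotype as terms, which leaves 2 residual degrees of freedom, and p-values were adjusted by Benjamini-Hochberg over all genes. Since the genotypes serve as the replicates, p sets the mean FNP minus MXP difference against how far the genotypes disagree. Reads were compared by 2-sided exact tests (scipy 1.17.1), adjusted over all genes with reads. No model of counts was fitted. All of these tests were checked on simulated data drawn under their own assumptions, independent normal values for limma and Poisson reads for the exact tests. Such data cannot show how the tests behave with amplified reads or variation between pools.

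Gene names came from the file and from RefSeq (GRCg7b, names only), with 7385 of 8274 Entrez identifiers matched. Named genes were the 12 per direction with the largest mean difference in both genotypes, the 8 per direction with the largest loss or gain (those past the exact test first), and members of gene lists. The 12 and the 8 were taken from genes with a symbol inside the authors' limits in at least 2 libraries. A gene could thus enter through the libraries where it is high. Members and lists were chosen with earlier results of these data known. Alternatives were a fit of 4 libraries, a fit without the genotype term, a robust fit, *GAPDH* or the median as the reference, other thresholds and filters, and a pseudocount of 10 reads.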

Additional observations from a re-analysis of the deposited data

Results flagged for a closer look

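The FNP to MXP ratio of the 2 control libraries differed from that of the *talpid2* libraries for 27 named genes in the exact conditional test of equal ratios (adjusted p from 4.42e-58 to 0.0487), which covers counting error only and compares libraries, not genotypes. The values here are the *talpid2* minus the control difference on the log2 scale. They were -2.15 for *EFCAB2*, -2.16 for *ASL1*, -1.13 for *MYL4*, -1.12 for *RFLNB*, -0.70 for *RDH10*, -1.84 for gga-let-7f, -0.88 for *GBX2* and -0.68 for *EPS8*. Among further genes that were less frontonasal in *talpid2*, they were -1.59 for *HES5*, -0.92 for *KRT15*, -0.70 for *WIF1*, -0.80 for *FZD10*, -0.48 for *SPRY2*, -0.91 for *FGF8*, -0.57 for *CYP26B1* and -2.79 for *GAP43*. Genes that were more frontonasal, or less maxillary, in *talpid2* had 1.76 for *C5orf35*, 1.0 for *SOCS2*, 1.65 for *MYH1F*, 1.32 for *HGF*, 1.36 for *COL21A1*, 1.25 for *PODNL1*, 1.85 for *CCSER1*, 1.62 for *PPM1H*, 1.47 for *ZNF385D*, 1.27 for *OSR1* and 0.69 for *FOXL2*. Over all 4716 genes tested, 126 passed, of which 60 had a difference closer to 0 in *talpid2* and 66 one further from 0. With 1 pooled library per group, variation between pools was not tested.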

How the results depend on the processing

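The number of genes called by limma was 411 with the 4 FNP and MXP libraries alone and 5058 with *GAPDH* as the reference, against 816, and between 723 and 840 under the other 4 alternatives. Of the 103 named genes called, 64 remained called with the 4 libraries alone, which leave 1 residual degree of freedom, and 81 without the genotype term. With a difference of at least 1.5, 201 genes differed the same way, 36 were lost and 34 gained. Among genes inside the limits of the authors in every library these were 151, 27 and 23. With a pseudocount of 10 reads they were 201, 29 and 32, where the genes with recovered reads gave 291, 112 and 107 without it, a base chosen after seeing the data. The other alternatives gave 362 to 423, 93 to 146 and 85 to 113. None of the 103 called named genes changed direction with *GAPDH* as the reference, but the balance of higher and lower genes did, from 466 and 350 to 435 and 4623 in limma, from 224 and 177 to 147 and 276 for genes that differed the same way, and from 79 and 50 to 43 and 103 for lost differences. The median of the Hedgehog list in control went from 0.02 to -0.34. The counts of the exact tests of reads stayed within 985 to 1503. The FNP and MXP were paired within genotype by the genotype term, without which 723 genes were called. No finer pairing was possible because the labels give no replicate numbers that groups share beyond the single library of each. Leaving out a library of the FNP or MXP was run as each genotype alone, which gives a value with no test. Depth limits the lost and gained differences, whose highest library had a median of 21.3 and 16.3 reads where reads were recovered. With a pseudocount of 10 reads, 46 named genes moved beyond the spread of the genotypes (by 0.5 or more if lost or gained). Another 48 did not.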

Other observations

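The 3 genes given here, *CGA*, *LHX3* and *PROKR1*, were chosen after their values were seen, for high reads in the *talpid2* FNP library. *CGA*, the shared alpha subunit of pituitary hormones, had 86.1 reads there, 5.48 in the control FNP, 4.14 in the control MXP and 6.0 in the *talpid2* MXP. Its difference was 0.19 in control and 3.90 in *talpid2*, and unequal ratios were not shown (exact conditional test, adjusted p = 0.0782). *LHX3*, a LIM homeodomain factor of the pituitary, had 36.4 reads in the *talpid2* FNP, 2.0 in the *talpid2* MXP and 0 in both control libraries, so no ratio could be tested. *PROKR1*, a prokineticin receptor, had 84.9 reads in the *talpid2* FNP and between 14.8 and 21.8 in the other 3 libraries, with a difference of 0.34 in control and 2.45 in *talpid2* (exact conditional test, adjusted p = 0.0351). The part of adjoining tissue in these values was not tested.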
